A study of Mus musculus with 30 samples.

Results

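The thyroid hormone receptor genes Thra and Thrb, the retinoid X receptor genes Rxra and Rxrb, the corepressor gene Ncor1, the coactivator genes Ncoa1, Ncoa2 and Ncoa3 and the Mediator gene Med1 were followed across mouse bone marrow-derived macrophages of 2 genotypes in 3 states. The 9 genes were taken by name from the 55414 genes of each count file, whatever their counts. The choice was made with earlier results of these data known. Each gene was found under 1 Ensembl identifier. PolyA RNA was sequenced in 30 libraries, 5 biological replicates for each of 6 groups. The macrophages came from transgenic mice with TRα1PV, a mutated thyroid hormone receptor α1, or from wild-type (WT) mice, and bone marrow of both was grown for 7 days in medium with 15 or 20% L929-conditioned medium. Cells were then left unstimulated (M0), given lipopolysaccharide (LPS) and interferon-γ at 20 ng/mL each (M1), or treated with 20 ng/mL of interleukin-4 (M2). The question set by the design was how TRα1PV macrophages differ from WT macrophages in each state. The sources used here do not give the age, the sex or the number of mutant alleles of the mice, nor how long the agents were left on the cells.

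Thyroid hormone receptors are nuclear receptors that sit on DNA mostly as partners of a retinoid X receptor. Without the hormone T3 they hold corepressors such as NCoR1, the product of Ncor1, and with T3 they exchange these for p160 coactivators, encoded by Ncoa1 to Ncoa3, and for the Mediator complex, which they contact through MED1. TRα1PV has lost T3 binding and is a dominant-negative receptor. Thra also encodes TRα2, an isoform that does not bind T3, and counts per gene separate neither isoforms nor mutant from normal transcripts. Thra is the receptor gene usually found in macrophages, and RXRα is also the partner of liver X receptors and peroxisome proliferator-activated receptors there.

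Thrb and Rxra showed the most marked responses to a stimulus among the 9 genes, so the sequence before each of their annotated starts is shown. RefSeq promoters (build GRCm38.p6) were at hand for 6 of the 9 genes, with 10 starts in all. The lines give the 250 bases before each start, 5′ to 3′, with capitals marking the thyroid hormone response half-site AGGTCA on either strand.
Thrb start 1 (chr14:17660710-17660959, plus strand): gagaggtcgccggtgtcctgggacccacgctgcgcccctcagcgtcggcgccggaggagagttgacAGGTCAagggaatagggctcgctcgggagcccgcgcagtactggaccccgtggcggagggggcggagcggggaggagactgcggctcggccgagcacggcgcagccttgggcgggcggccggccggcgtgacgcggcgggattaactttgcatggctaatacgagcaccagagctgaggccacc
Thrb start 2 (chr14:17981394-17981643, plus strand): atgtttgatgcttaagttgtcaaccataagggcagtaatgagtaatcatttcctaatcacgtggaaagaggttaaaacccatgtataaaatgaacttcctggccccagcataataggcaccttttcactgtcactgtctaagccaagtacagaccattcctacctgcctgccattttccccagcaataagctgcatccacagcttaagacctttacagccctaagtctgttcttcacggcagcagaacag
Rxra start 1 (chr2:27676951-27677200, plus strand): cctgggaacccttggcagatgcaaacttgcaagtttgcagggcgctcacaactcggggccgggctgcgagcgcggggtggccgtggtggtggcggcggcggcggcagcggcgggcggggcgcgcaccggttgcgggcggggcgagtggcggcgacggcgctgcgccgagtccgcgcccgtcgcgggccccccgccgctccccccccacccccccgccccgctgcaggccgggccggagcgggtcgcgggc
Rxra start 2 (chr2:27709042-27709291, plus strand): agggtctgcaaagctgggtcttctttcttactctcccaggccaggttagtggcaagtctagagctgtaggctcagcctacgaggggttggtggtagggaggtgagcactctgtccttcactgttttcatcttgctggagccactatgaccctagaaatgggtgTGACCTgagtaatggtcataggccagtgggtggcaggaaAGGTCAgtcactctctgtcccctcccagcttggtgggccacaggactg

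One half-site lay 184 bases before Thrb start 1, and 2 lay 87 and 48 bases before Rxra start 2, in opposite orientations. Over the 300 bases that also take in the first 50 after the start, 16.3% of all 32851 RefSeq promoters held a half-site on either strand. The direct repeat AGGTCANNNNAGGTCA, of which each match holds 2 half-sites, was in 0.0152% of promoters and in none of these 4. The letters TTCNNNNGAA, bound by STAT6 (the factor that interleukin-4 activates), were in 6.95% of promoters. This motif reads the same on either strand, and it was not found before Thrb or Rxra. The start in use in these cells is not known from counts per gene.

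Between 23016000 and 59086000 reads per library were counted in genes (rounded to 5 digits), and all 9 genes were among the 15686 genes tested. Levels are CPM, the reads of a gene per 1e+06 reads of its library, after scaling of the libraries with TMM factors. Changes are log2 fold changes ± SE from edgeR's quasi-likelihood test with 5 libraries per group, and a gene was called where its p, adjusted by the Benjamini-Hochberg method over all tested genes, was under 0.05. Macrophage markers (7 genes) summed to medians of 29800 CPM in TRα1PV M0 and 31200 CPM in WT M0. The medians were 8650 CPM in TRα1PV M1 and 9290 CPM in WT M1, and 19100 and 20400 CPM in M2. Of the 7, 1 was called higher and 1 lower in TRα1PV in M0, and 1 lower in each of M1 and M2. None of the 7 was at 0. Granulocyte and precursor markers were higher in TRα1PV, with sums of 178 to 365 CPM against 48.4 to 209 CPM in WT in M0, 5.68 to 11.3 against 3.48 to 5.29 CPM in M1, and 98.3 to 228 against 28.6 to 92.8 CPM in M2 (9, 1 and 6 of 9 tested genes called). Fibroblast markers were lower in TRα1PV, with 1.69 to 2.88 against 6.6 to 19.6 CPM in WT in M0, 2.04 to 3.22 against 3.96 to 5.52 CPM in M1 and 1.19 to 2.53 against 3.72 to 13.5 CPM in M2 (7, 4 and 5 of 7). Endothelial markers summed to more in TRα1PV, with 10.6 to 22 against 6.69 to 10.5 CPM in WT in M0, 80.5 to 100 against 61.1 to 83.3 CPM in M1 and 27.2 to 38.8 against 19.1 to 24.7 CPM in M2 (2, 1 and 2 of 3 called higher, and 1 lower in M2). B cell markers had 5.02 to 8.13 against 3.04 to 6.03 CPM in M0 and at most 4.15 CPM elsewhere, with 1 of 1 tested gene called higher in M0 and M1. Mast cell and basophil markers had 1.08 to 2.71 against 0.442 to 0.859 CPM in M0 (1 of 1 higher), and dendritic cell markers 3.07 to 5.4 against 5.09 to 8.39 CPM in M1 (2 of 5 lower). T and NK cell and erythroid markers were at or near 0 in every group. WT M0 replicate 2 had 4.56% mitochondrial reads, while its 4 fellow replicates had 0.921 to 2.07%. Reads that fell outside genes made up 12 to 14.7% of those counted in TRα1PV M0 and 9.68 to 14.2% in WT M0, and 8.84 to 11.8% in the M1 and M2 groups. Values called adjusted for outside reads come from a fit with that percentage as a covariate. In TRα1PV it was 9.68 to 11.5% in M1 and 9.55 to 11.8% in M2, without overlap with TRα1PV M0. The covariate and the state cannot be told apart there, so adjusted state effects in TRα1PV are not corrected values. In M0, WT replicate 2 had 14.19% outside reads, and its 4 fellow replicates had 9.683 to 11.97%, below every TRα1PV M0 library. The genotypes thus overlapped in that share through WT M0 replicate 2 alone, so adjusted genotype effects in M0 are not corrected values either. The differences in markers and reads go with the genotype or the state. Beyond the adjusted values, their part in the results on the 9 genes was not tested. In bulk RNA, fewer cells of a type and less RNA per cell cannot be told apart.

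At rest, the cells held transcripts of all 9 genes, with Thrb close to the detection limit. Per kilobase of annotated exon (GENCODE M21), Ncoa3 had the highest level in M0, 38.0 ± 1.59 CPM/kb in TRα1PV and 35.5 ± 1.56 CPM/kb in WT (SD, n = 5 each, as for all levels here). Rxra followed with 24.4 ± 2.52 CPM/kb in TRα1PV and 23.2 ± 2.96 CPM/kb in WT, and Ncor1 with 19.8 ± 1.06 and 19.9 ± 3.00 CPM/kb, a gap to Rxra close to the SD in WT. Below these, Ncoa1, Rxrb, Med1 and Ncoa2 lay between 7.68 and 11.5 CPM/kb in TRα1PV and between 7.17 and 11.9 CPM/kb in WT. Thra stood at 12.2 ± 0.874 CPM/kb in TRα1PV, about level with Ncoa1, and at 5.30 ± 0.413 CPM/kb in WT, below all of the other genes but Thrb. Thrb stood at 0.0249 ± 0.0148 CPM/kb in TRα1PV and 0.0489 ± 0.00891 CPM/kb in WT, so Thra was by far the more abundant receptor transcript at rest. The lengths take in every annotated exon, whichever transcripts the cells make, so the order of genes depends on the annotation. Before division by length, Ncoa2 (120 CPM in TRα1PV, 112 CPM in WT) lay above Ncoa1 (99.0 and 86.3 CPM) in M0.

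Thra, which carries the mutation, was higher in TRα1PV in all 3 states. In M0 the TRα1PV libraries had 58.2, 61.1, 56.9, 50.8 and 53.5 CPM (replicates 1 to 5), against 26.9, 24.3, 22.3, 25.8 and 23.0 CPM in WT. In M1 they had 53.8, 45.4, 51.7, 48.9 and 46.1 CPM in TRα1PV, against 35.0, 21.1, 21.4, 28.5 and 22.3 CPM in WT. In M2 they had 46.3, 43.3, 43.6, 41.7 and 42.1 CPM in TRα1PV, against 18.1, 15.6, 16.4, 17.3 and 16.6 CPM in WT. The genotypes did not overlap in any state, and even the highest WT value, replicate 1 in M1, lay below the lowest TRα1PV value in M2. The increase was 2.29-fold in M0 (log2 1.20 ± 0.10, adjusted p = 1.76e-10), 1.92-fold in M1 (0.94 ± 0.10, adjusted p = 7.95e-08) and 2.58-fold in M2 (1.37 ± 0.10, adjusted p = 2.24e-11). The increase in M1 differed from that in M0 by -0.26 ± 0.14 and the one in M2 by 0.17 ± 0.14, neither past the threshold (adjusted p = 0.155 and 0.762). Nr1d1, the gene of the heme receptor REV-ERBα, lies on the opposite strand and shares 263 of the 4614 exonic bases of Thra (5.7%) in GENCODE M21. It rose in TRα1PV in M1 (0.79 ± 0.16, adjusted p = 6.55e-04) and was at 0.25 ± 0.14 in M0 and 0.29 ± 0.15 in M2 (adjusted p = 0.2 and 0.207). The sources used here do not give the strand setting of the counting. Reads that fit more than 1 gene had a total of their own. It made up 1.865 to 2.749% of the reads in genes, outside genes or in that total. Whether reads in the bases shared with Nr1d1 went to that total or to Thra is not known.

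**Figure D1:**
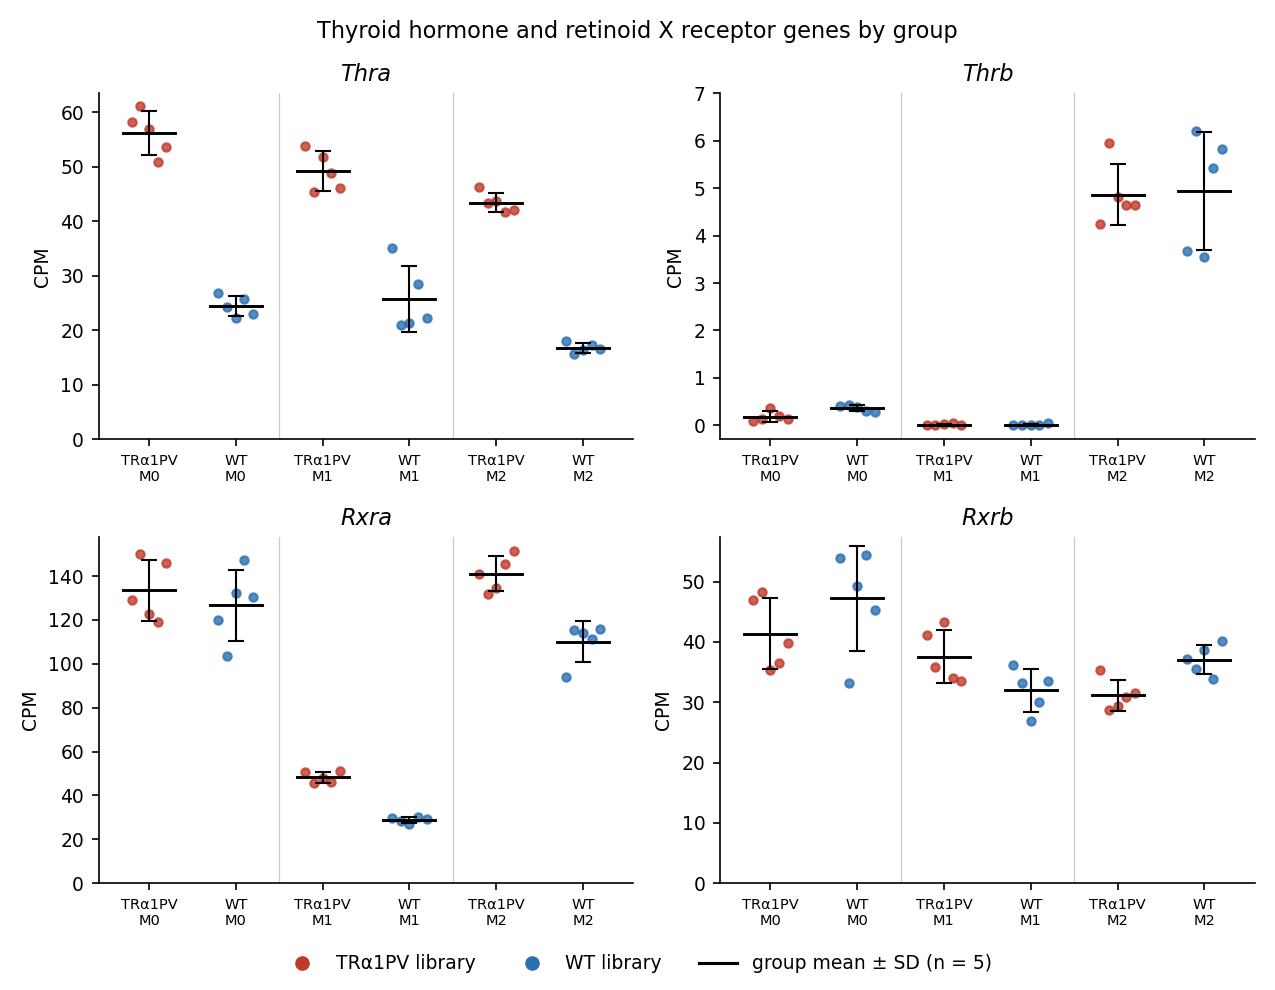
CPM of the 4 receptor genes in each library (dots), with group mean ± SD (bars, n = 5) on linear axes, TRα1PV left of WT in each state. Thra separates the genotypes in all 3 states, Thrb is high in M2 alone, and Rxra is lowest in M1, where the TRα1PV libraries (45.8 to 51.3 CPM) lie above the WT libraries (26.8 to 30.2 CPM).

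Thrb, the gene of the second T3 receptor, changed with the stimulus far more than with the genotype. In M2 the TRα1PV libraries had 4.26, 5.95, 4.83, 4.64 and 4.65 CPM, against 0.0900, 0.131, 0.369, 0.191 and 0.139 CPM in TRα1PV M0. WT libraries had 3.67, 6.21, 3.56, 5.43 and 5.82 CPM in M2, against 0.397, 0.434, 0.393, 0.310 and 0.276 CPM in M0. Every M2 library lay above every M0 library of its genotype. Thrb rose 24.1-fold with interleukin-4 in TRα1PV (log2 4.59 ± 0.25, adjusted p = 8.22e-16) and 13.5-fold in WT (3.76 ± 0.24, adjusted p = 3.89e-14). With LPS and interferon-γ it all but vanished, with 2 reads over the 5 TRα1PV M1 libraries, against 51 reads in TRα1PV M0, and 1 read in WT M1, against 70 reads in WT M0. On the scaled counts the M0 level was 14.3 times the M1 level in TRα1PV (95% exact interval 3.77 to 122) and 50.4 times in WT (8.75 to 2020), intervals that cover counting error only. Both decreases were called (adjusted p = 1.64e-05 in TRα1PV and 4.52e-08 in WT). Even in M2, Thrb reached 0.657 ± 0.0866 CPM/kb in TRα1PV and 0.667 ± 0.168 CPM/kb in WT, well under the 9.41 ± 0.389 and 3.64 ± 0.202 CPM/kb of Thra in the same groups.

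Between genotypes, Thrb in M0 was lower in TRα1PV (-0.86 ± 0.31, adjusted p = 0.0418), with 4 of the 5 TRα1PV libraries under the lowest WT library and replicate 3 among the WT values. That call rests on 51 reads in TRα1PV and 70 in WT and held in 7 of 18 alternative analyses (adjusted p 0.00342 to 0.121). It held when TRα1PV M0 replicate 3 or WT M0 replicate 5 was left out, and was lost when any other M0 library was (adjusted p 0.055 to 0.108) or when both M0 libraries numbered 2 were (adjusted p = 0.121). In M2 the groups overlapped throughout (-0.03 ± 0.19, adjusted p = 0.944), and the difference between the M2 and M0 effects was 0.83 ± 0.36 (adjusted p = 0.334).

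Rxra, the more abundant retinoid X receptor gene per kilobase in M0 and M2 but not in M1, differed between the genotypes in M1 and M2. In M1 the TRα1PV libraries had 50.5, 45.8, 48.0, 46.0 and 51.3 CPM, against 29.5, 28.3, 26.8, 30.2 and 29.1 CPM in WT. In M2 they had 141, 132, 135, 146 and 151 CPM in TRα1PV, against 94.0, 116, 114, 111 and 116 CPM in WT. In M0 they had 129, 150, 123, 119 and 146 CPM in TRα1PV, against 120, 104, 132, 147 and 130 CPM in WT. The genotypes were apart in M1 and M2 and mixed in M0. Rxra was 1.68-fold higher in TRα1PV in M1 (log2 0.75 ± 0.08, adjusted p = 1.17e-07) and 1.28-fold higher in M2 (0.36 ± 0.08, adjusted p = 0.00194), and it was at 0.07 ± 0.08 in M0 (adjusted p = 0.5). The calls in M1 and M2 held in all 17 alternatives run for each, and the M0 value was -0.033 without both M0 libraries numbered 2.

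The M1 difference arose while Rxra was falling in both genotypes. LPS with interferon-γ lowered it to 0.362 of the M0 level in TRα1PV (-1.46 ± 0.08, adjusted p = 5.86e-17) and to 0.227 of it in WT (-2.14 ± 0.08, adjusted p = 1.05e-20). The test of the difference itself, the genotype effect in M1 minus that in M0, gave 0.67 ± 0.11 (adjusted p = 8.29e-05). With interleukin-4, Rxra fell in WT (-0.20 ± 0.08, adjusted p = 0.0266) and was at 0.08 ± 0.08 in TRα1PV (adjusted p = 0.384). That WT call ended without WT M2 replicate 1 (adjusted p = 0.107) and without WT M0 replicate 3, 4 or 5 (adjusted p 0.0516 to 0.119), with no filter on low counts (adjusted p = 0.0675) and with the compared groups alone (adjusted p = 0.149). It was -0.306 when adjusted for outside reads (adjusted p = 0.00177), and the TRα1PV value then was -0.056. The genotype effect in M2 minus that in M0, 0.28 ± 0.11, did not pass (adjusted p = 0.227) but did without WT M0 replicate 2 (0.347, adjusted p = 0.0432), the library with the lowest Rxra value in its group.

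Rxrb, the gene of the second retinoid X receptor, was called in no genotype comparison, a result that depended on the analysis. The M0 mean was 41.4 ± 5.91 CPM for TRα1PV and 47.2 ± 8.68 CPM for WT. The M1 means were 37.6 ± 4.38 CPM for TRα1PV and 32.0 ± 3.57 CPM for WT, and the M2 means 31.2 ± 2.59 and 37.1 ± 2.45 CPM for the same genotypes. The genotypes overlapped in each state, and the genotype effects in M0, M1 and M2 were -0.19 ± 0.11, 0.23 ± 0.11 and -0.25 ± 0.11 on the log2 scale (adjusted p = 0.19, 0.14 and 0.124). Adjusted for outside reads, the M0 value was 0.045 (adjusted p = 0.756) and the M1 value 0.312, which passed (adjusted p = 0.00211). With the compared groups alone, the M2 value passed (-0.249, adjusted p = 0.0129). LPS with interferon-γ lowered Rxrb in WT (-0.56 ± 0.11, adjusted p = 3.24e-05), while the value in TRα1PV was -0.14 ± 0.11 (adjusted p = 0.248), but -0.531 when adjusted for outside reads (adjusted p = 1.88e-05). The genotype effect in M1 minus that in M0 was 0.43 ± 0.16 (adjusted p = 0.0411), a call that held in 15 of 28 alternatives. It was lost when adjusted for outside reads (0.268, adjusted p = 0.0657), with no filter on low counts (adjusted p = 0.071) and with the compared groups alone (adjusted p = 0.088). It was also lost when any 1 of TRα1PV M0 replicates 3, 4 and 5, TRα1PV M1 replicates 1 and 3, WT M0 replicates 1, 3 and 4 and WT M1 replicates 3 and 4 was left out (adjusted p 0.0613 to 0.0938). WT M0 replicate 2 had the lowest M0 value, 33.2 CPM, where the remaining 4 had 45.3 to 54.4 CPM, and without it Rxrb was lower in TRα1PV in M0 (-0.298, adjusted p = 0.0141). Interleukin-4 lowered Rxrb in both genotypes (-0.41 ± 0.11 in TRα1PV, adjusted p = 0.0021, and -0.35 ± 0.11 in WT, adjusted p = 0.00803), with -0.761 and -0.605 when adjusted for outside reads. Rxrg, the third gene of the family, had 0 reads in all 30 libraries.

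Ncor1, whose product holds histone deacetylase 3 on unliganded receptors, did not pass in any genotype comparison. Its M0 level was 254 ± 13.6 CPM for TRα1PV and 255 ± 38.5 CPM for WT. In M1 it had 289 ± 8.95 CPM for TRα1PV and 286 ± 17.9 CPM for WT, and in M2 208 ± 13.5 and 204 ± 12.6 CPM. On the log2 scale the genotypes differed by -0.01, 0.01 and 0.03, each ± 0.07 (adjusted p = 0.951, 0.924 and 0.824), with a sign that turned with the analysis. The wide spread in WT M0 came from replicate 2, at 322 CPM against 224 to 249 CPM in the other 4 libraries. LPS with interferon-γ raised Ncor1 slightly in TRα1PV (0.19 ± 0.07, adjusted p = 0.0192) and in WT (0.16 ± 0.07, adjusted p = 0.0371), the first call lost without TRα1PV M0 replicate 2 (adjusted p = 0.058) and the second without WT M0 replicate 1, 3, 4 or 5 or WT M1 replicate 3 or 5 (adjusted p 0.0678 to 0.134), or with the compared groups alone (adjusted p = 0.269). Adjusted for outside reads, the values were 0.387 in TRα1PV and 0.304 in WT, and without WT M0 replicate 2 the WT value was 0.262. Interleukin-4 lowered it in TRα1PV (-0.29 ± 0.07, adjusted p = 0.00105) and in WT (-0.32 ± 0.07, adjusted p = 3.58e-04), the first call lost when adjusted for outside reads (-0.107, adjusted p = 0.199) and the WT value then -0.176.

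Ncoa1, the gene of SRC-1, was modestly higher in TRα1PV. In M0 the TRα1PV libraries had 98.5, 97.6, 98.8, 104 and 96.6 CPM, against 80.1, 93.1, 83.1, 86.6 and 88.5 CPM in WT. In M1 they had 190, 177, 178, 184 and 176 CPM in TRα1PV, against 150, 144, 169, 159 and 166 CPM in WT. The groups did not overlap in either state, while in M2, with 73.8 ± 3.79 CPM for TRα1PV and 66.0 ± 5.53 CPM for WT, they did. The increase was 1.15-fold in M0 (0.20 ± 0.06, adjusted p = 0.00923) and 1.15-fold in M1 (0.20 ± 0.06, adjusted p = 0.0111), and the M2 value was 0.16 ± 0.06 (adjusted p = 0.054, or 0.0431 with a replicate block, 0.0373 with DESeq2, 0.0487 with limma-voom, 0.0334 without TRα1PV M2 replicate 3 and 0.011 without WT M2 replicate 4). The M0 call was lost when adjusted for outside reads (0.139, adjusted p = 0.0756), and the M1 call with no filter on low counts (0.184, adjusted p = 0.0722). Stimulation had a larger effect than genotype: LPS with interferon-γ raised Ncoa1 1.83-fold in TRα1PV (0.87 ± 0.06, adjusted p = 6.54e-15) and 1.83-fold in WT (0.87 ± 0.06, adjusted p = 7.86e-15). Interleukin-4 lowered it in TRα1PV (-0.42 ± 0.06, adjusted p = 1.44e-07) and in WT (-0.39 ± 0.06, adjusted p = 9.31e-07).

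Ncoa3, the gene of SRC-3, was also higher in TRα1PV in M1, with 459, 444, 454, 404 and 441 CPM, against 398, 373, 374, 384 and 386 CPM in WT. All TRα1PV libraries lay above all WT libraries, TRα1PV replicate 4 by the least (0.20 ± 0.05, 1.15-fold, adjusted p = 0.00335). In M0 and M2 the groups overlapped and the values, 0.10 ± 0.05 and 0.12 ± 0.05, did not pass (adjusted p = 0.139 and 0.0906). LPS with interferon-γ raised Ncoa3 in TRα1PV (0.55 ± 0.05, adjusted p = 7.26e-12) and in WT (0.45 ± 0.05, adjusted p = 8.03e-10). With interleukin-4 it was at -0.04 ± 0.05 in TRα1PV and -0.07 ± 0.05 in WT (adjusted p = 0.471 and 0.251).

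Ncoa2, the gene of the third p160 coactivator, went the other way with LPS and interferon-γ. TRα1PV cells averaged 120 ± 4.86 CPM and WT cells 112 ± 8.09 CPM in M0. In M1, TRα1PV cells averaged 98.2 ± 1.61 CPM and WT cells 103 ± 6.29 CPM, and in M2 the averages were 101 ± 5.08 CPM for TRα1PV and 91.9 ± 4.42 CPM for WT. It fell in M1 in TRα1PV (-0.29 ± 0.05, adjusted p = 8.46e-06) and in WT (-0.13 ± 0.05, adjusted p = 0.0265), the WT call lost without WT M0 replicate 2 or 4 or WT M1 replicate 1, 2 or 4 (adjusted p 0.0504 to 0.111), with no filter on low counts (adjusted p = 0.145) or when adjusted for outside reads (-0.057, adjusted p = 0.313). It fell in M2 in TRα1PV (-0.26 ± 0.05, adjusted p = 9.82e-05) and in WT (-0.29 ± 0.05, adjusted p = 2.90e-05). Adjusted for outside reads, the TRα1PV values were -0.182 in M1 and -0.158 in M2. Between genotypes the values were 0.10 ± 0.05 in M0, -0.06 ± 0.05 in M1 and 0.13 ± 0.05 in M2, none past the threshold (adjusted p = 0.156, 0.419 and 0.095). The M0 value passed without WT M0 replicate 2 (0.14, adjusted p = 0.0275), and the M2 value without TRα1PV M2 replicate 1 (adjusted p = 0.0494) or WT M2 replicate 4 (adjusted p = 0.0443).

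Med1, the Mediator subunit that binds liganded receptors, responded to LPS and interferon-γ. It stood at 144 ± 7.05 CPM in TRα1PV M1, against 81.7 ± 4.58 CPM in TRα1PV M0, and at 145 ± 11.6 CPM in WT M1, against 74.3 ± 5.73 CPM in WT M0. No M1 library overlapped the M0 libraries, and the increase was 1.77-fold in TRα1PV (0.82 ± 0.06, adjusted p = 3.13e-13) and 1.96-fold in WT (0.97 ± 0.06, adjusted p = 6.90e-15). In M2 the means were 88.0 ± 3.60 CPM for TRα1PV and 81.2 ± 5.88 CPM for WT, not past the threshold against M0 (0.11 ± 0.06 in TRα1PV, adjusted p = 0.145, and 0.13 ± 0.06 in WT, adjusted p = 0.0849, or 0.0234 with a replicate block). Adjusted for outside reads, both passed, with 0.218 in TRα1PV (adjusted p = 0.00836) and 0.216 in WT (adjusted p = 0.00557). Between genotypes the M0 value was 0.14 ± 0.06 (adjusted p = 0.0996, or 0.0281 with a replicate block), and M1 and M2 gave -0.01 ± 0.06 and 0.12 ± 0.06 (adjusted p = 0.931 and 0.207). Without WT M0 replicate 2 the M0 value passed (0.168, adjusted p = 0.0365).

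**Figure D2:**
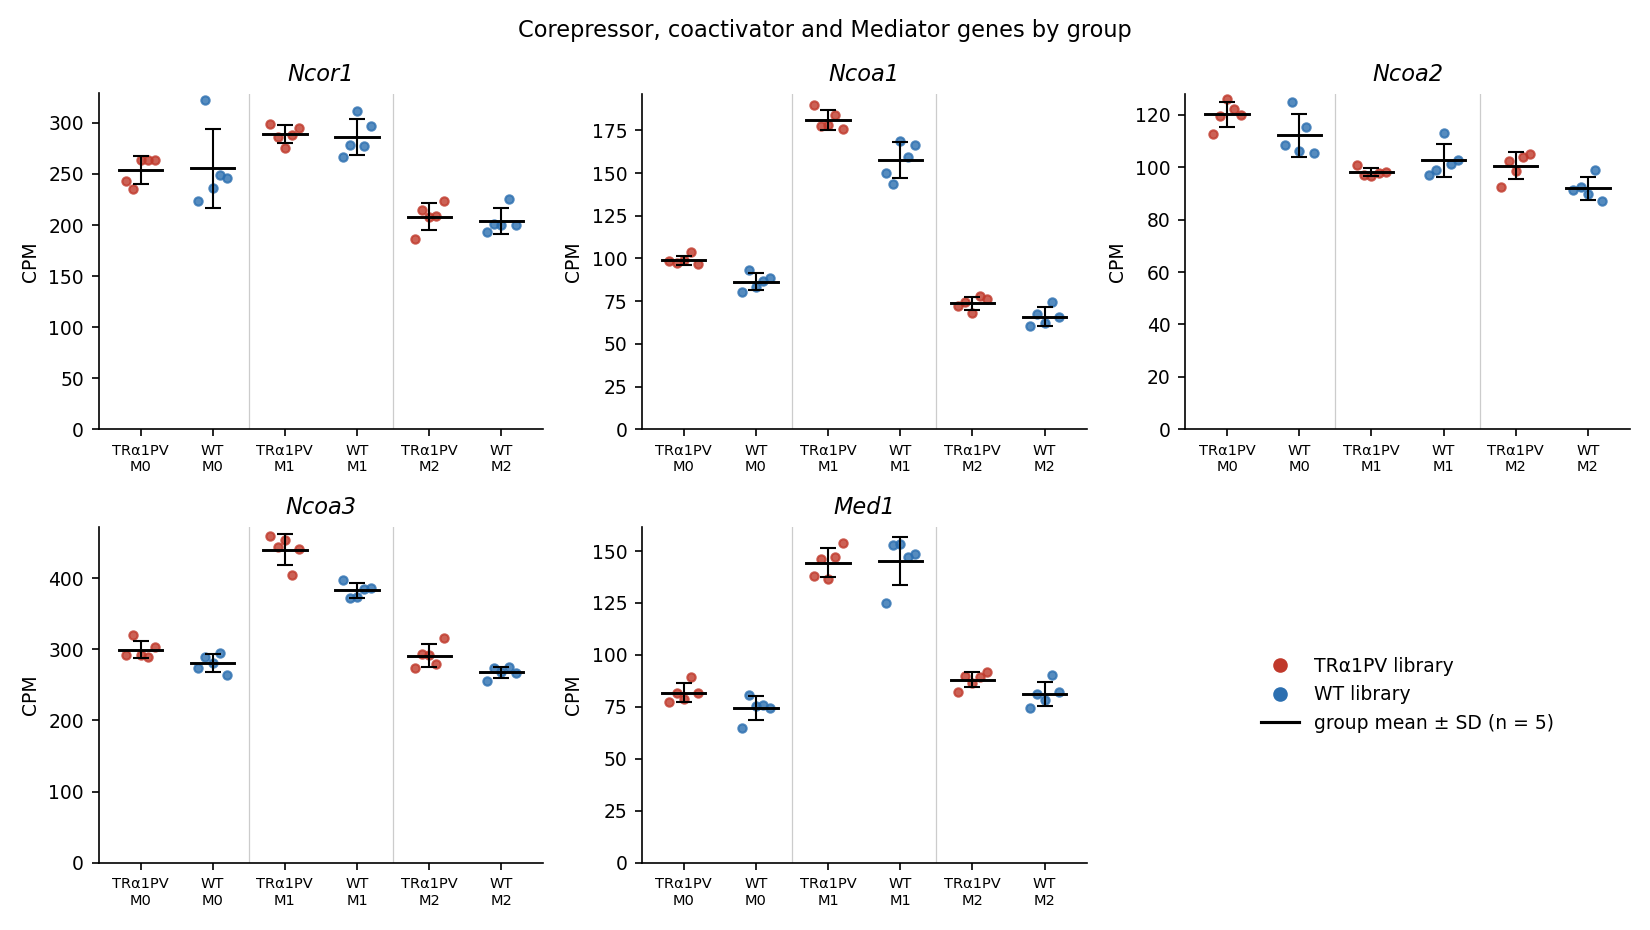
CPM of the 5 cofactor genes in each library (dots), with group mean ± SD (bars, n = 5) on linear axes from 0, TRα1PV left of WT in each state. Ncoa1, Ncoa3 and Med1 are highest in M1 in both genotypes, and Ncor1 shows 1 WT M0 library at 322 CPM above the other 4.

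Counted together, 2 of the 9 genes were higher in TRα1PV in M0 (Thra and Ncoa1) and 1 lower (Thrb), where 12.0% of all genes tested were called higher and 14.0% lower. In M1, 4 were higher (Thra, Rxra, Ncoa1 and Ncoa3) and 0 lower, where 9.74% of all genes were called higher and 10.2% lower. In M2, 2 were higher (Thra and Rxra) and 0 lower, where 6.14% were called higher and 6.96% lower. Without WT M0 replicate 2, 5 of the 9 genes were called in M0, and 6143 of all genes instead of 4072. Without WT M2 replicate 4, 4 were called in M2, and 2709 of all genes instead of 2055. Groups without overlap were found for 2 of the 9 genes in M0 (12.5% of all genes), 4 in M1 (11.6%) and 2 in M2 (13.8%). The median log2 fold change of the 9 genes was 0.10, 0.20 and 0.12 in M0, M1 and M2, beside -0.00952, 0 and -0.00691 over all genes tested. Averaged over the 3 states, where 11.6% of genes were called higher and 14.6% lower, Thra (1.17 ± 0.06, adjusted p = 4.38e-16), Rxra (0.39 ± 0.04, adjusted p = 7.47e-08), Ncoa1 (0.19 ± 0.03, adjusted p = 5.58e-05) and Ncoa3 (0.14 ± 0.03, adjusted p = 3.01e-04) were higher in TRα1PV. Med1 was at 0.08 ± 0.04 in that average (adjusted p = 0.0948, or 0.0237 with a replicate block). The genotype effect differed between M1 and M0 for 2 of the 9 genes, both positive (13.3% of all genes were called positive and 13.3% negative). Those were Rxra and Rxrb. Between M2 and M0 it differed for 0 of the 9 (0.701% of all genes positive and 1.46% negative). For M2 minus M0, edgeR gave an unadjusted p under 0.05 for Rxra (0.0137) and Thrb (0.0299).

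**Figure D3:**
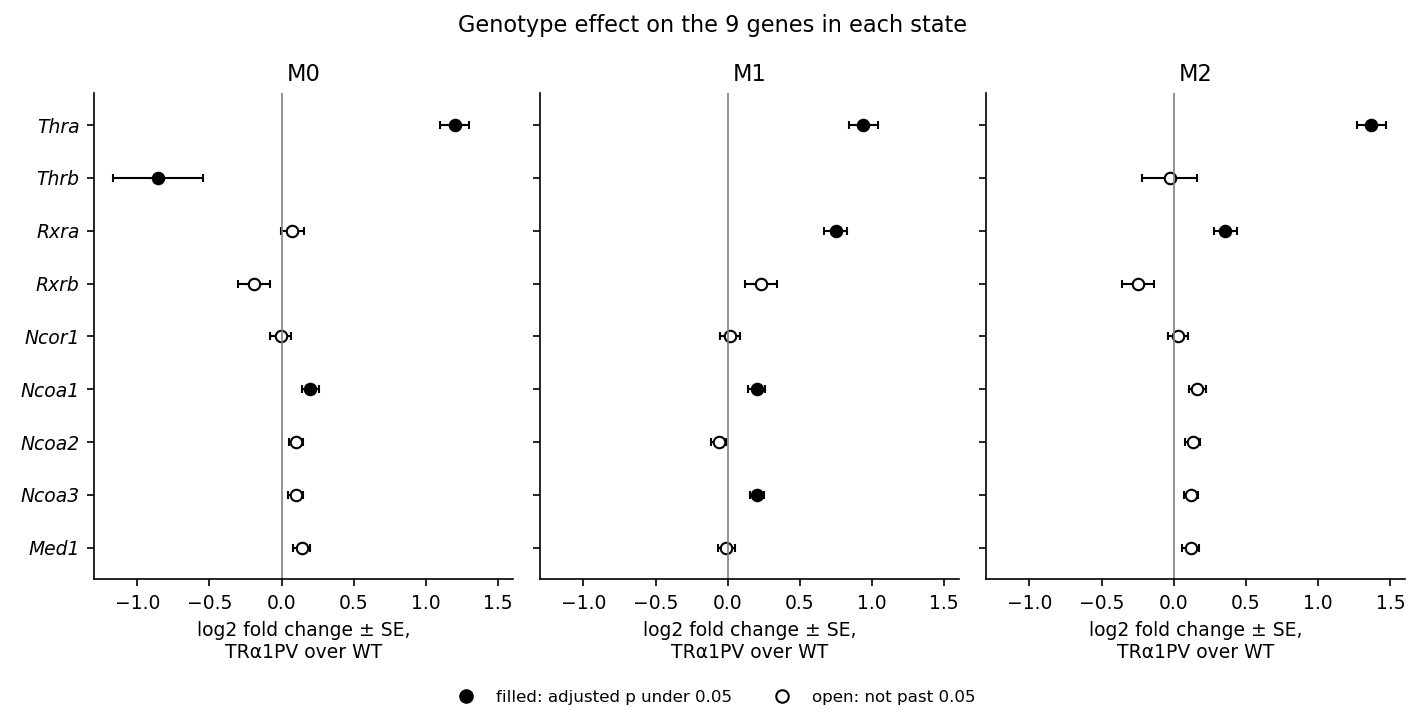
Log2 fold change ± SE (x axis, the same in all panels) of TRα1PV over WT for the 9 genes in M0, M1 and M2, filled where the adjusted p was under 0.05. Thra lies between 0.94 and 1.37 in all panels, Rxra goes up to 0.75 in M1, and most cofactors lie within 0.20 of 0; Thrb in M1 is left out for want of reads.

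Polarization changed most of the 9 genes, as it did most genes measured. With LPS and interferon-γ, 4 genes rose and 3 fell in TRα1PV, where 40.0% of all genes rose and 40.7% fell. In WT, 4 rose and 4 fell, where 39.4% of all genes rose and 40.2% fell. The same 4 genes rose in both genotypes, namely Ncor1, Ncoa1, Ncoa3 and Med1, and Thrb, Rxra and Ncoa2 fell in both. Thra itself was at -0.19 ± 0.09 in TRα1PV (adjusted p = 0.0653, or 0.0295 with a replicate block, 0.0185 with a block within genotype, 0.0446 with limma-voom and 0.0062 with the compared groups alone) and at 0.07 ± 0.10 in WT (adjusted p = 0.511). With interleukin-4, 1 gene rose and 5 fell in TRα1PV, where 28.3% of all genes rose and 29.4% fell. In WT, 1 rose and 6 fell, where 25.2% of all genes rose and 27.2% fell. Thra, Rxrb, Ncor1, Ncoa1 and Ncoa2 fell in both genotypes, Thra by 0.37 ± 0.09 in TRα1PV (adjusted p = 0.00124) and by 0.54 ± 0.10 in WT (adjusted p = 2.68e-05) on the log2 scale. The comparisons within a state and those with M0 use the same libraries.

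**Figure D4:**
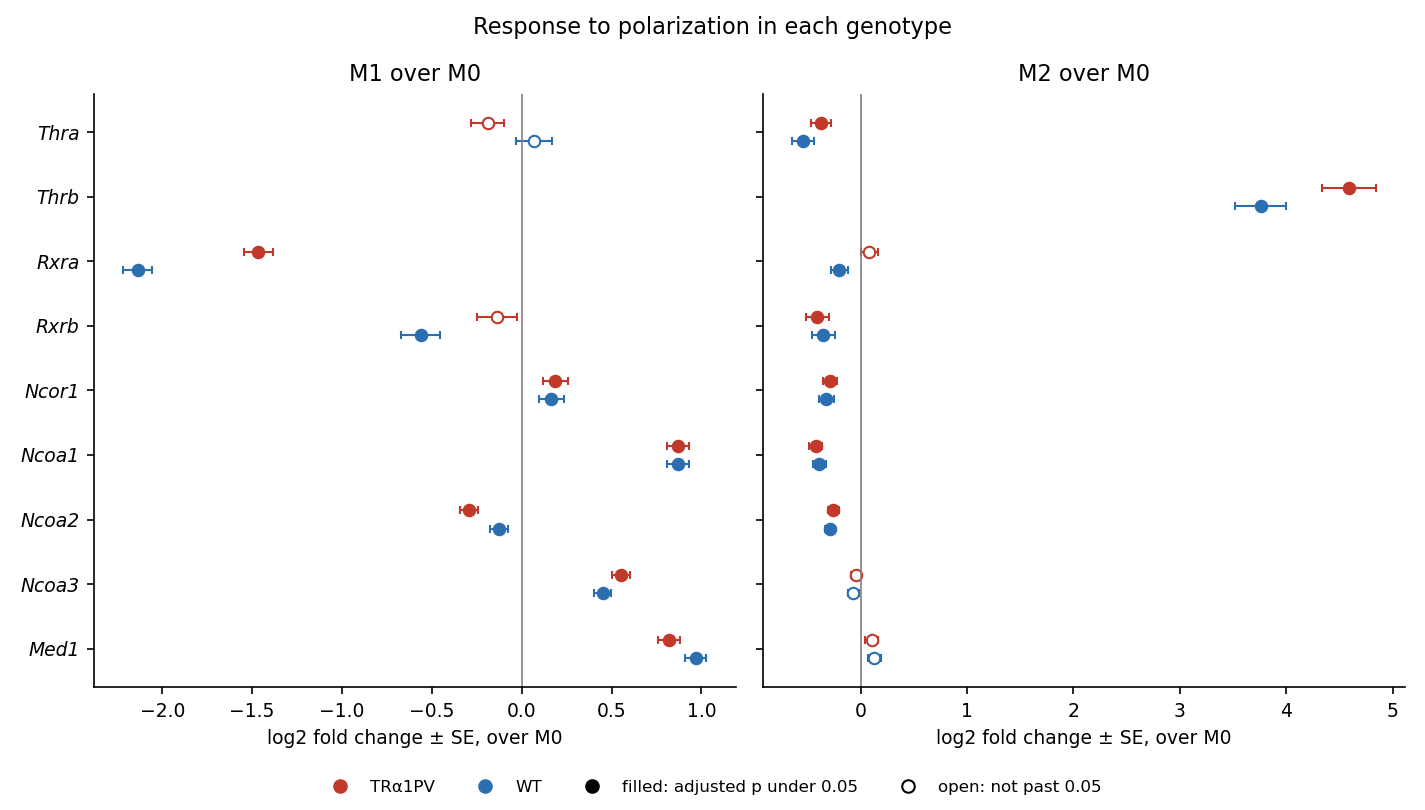
Log2 fold change ± SE of M1 over M0 (left) and M2 over M0 (right) for the 9 genes in TRα1PV (red) and WT (blue), filled where the adjusted p was under 0.05; the panels have different x axes. Rxra falls less in TRα1PV (-1.46) than in WT (-2.14) with M1, and Thrb rises by 4.59 and 3.76 with M2; Thrb in M1 is given in the text as a ratio of reads.

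Genes that work with the receptors moved less evenly. Of 10 further corepressor genes, 2 rose and 1 fell in TRα1PV in M0, 1 fell in M1 and 0 were called in M2 at an adjusted p under 0.05. Over all genes, 12.0% rose and 14.0% fell in M0, 9.74% rose and 10.2% fell in M1, and 6.14% rose and 6.96% fell in M2, so these counts lay near the shares of all genes or below them. Tbl1x and Tbl1xr1, which encode parts of the NCoR complex, rose in M0 (0.30 ± 0.07, adjusted p = 0.00143, and 0.30 ± 0.11, adjusted p = 0.0364). Nrip1, the gene of a corepressor of liganded receptors, fell in M1 (-0.32 ± 0.11, adjusted p = 0.0313). The calls of Tbl1xr1 and Nrip1 were each lost when 1 of several libraries was left out (adjusted p up to 0.136 and 0.095). Tbl1xr1 was at 0.124 when adjusted for outside reads (adjusted p = 0.324), lost its call with the compared groups alone (adjusted p = 0.14) and was at 0.484 without both M0 libraries numbered 2. Of 14 tested coactivator genes outside the p160 family, 1 rose and 5 fell in M0, 0 were called in M1 and 1 fell in M2, beside the same shares of all genes (14.0% lower in M0). Smarca4, the gene of the chromatin remodeller BRG1, fell in M0 (-0.29 ± 0.05, adjusted p = 1.28e-04), as did Ppargc1b (-0.50 ± 0.13, adjusted p = 0.00561), and Kat2a, an acetyltransferase gene, fell in M0 (-0.28 ± 0.08, adjusted p = 0.00992) and M2 (-0.31 ± 0.08, adjusted p = 0.00868). The M0 call of Kat2a was lost when adjusted for outside reads (-0.154, adjusted p = 0.149), and those of Kat2a and Ppargc1b with the compared groups alone (adjusted p = 0.0701 and 0.056).

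Of 32 further Mediator subunit genes, 2 rose and 6 fell in TRα1PV in M0, 2 rose and 1 fell in M1, and 2 rose in M2. These counts stand beside 12.0% of all genes higher and 14.0% lower in M0, 9.74% and 10.2% in M1, and 6.14% and 6.96% in M2, and in M1 and M2 they were at or below those shares. Med15 fell in M0 (-0.32 ± 0.05, adjusted p = 4.37e-05) and rose in M1 (0.17 ± 0.05, adjusted p = 0.0242). Med12l, of the kinase module, rose in M0 (0.85 ± 0.19, adjusted p = 0.00156) and Med27 fell there (-0.45 ± 0.11, adjusted p = 0.00381). In M1 Med13l rose (0.22 ± 0.06, adjusted p = 0.00918) and Med30 fell (-0.31 ± 0.10, adjusted p = 0.0202), and in M2 Med23 (0.17 ± 0.05, adjusted p = 0.0145) and Med19 (0.23 ± 0.08, adjusted p = 0.0485) rose. The calls of Med15 and Med30 in M1 and of Med23 and Med19 in M2 were lost with 1 library fewer (adjusted p up to 0.0932, 0.0566, 0.0515 and 0.139), as were these 4 and that of Med13l with no filter on low counts (adjusted p 0.0509 to 0.142). Med27 was at -0.231 and Med19 at 0.186 when adjusted for outside reads, neither past the threshold (adjusted p = 0.111 and 0.126). With LPS and interferon-γ, 22 of the 32 rose and 7 fell in TRα1PV (40.0 and 40.7% of all genes) and 19 rose and 7 fell in WT (39.4 and 40.2%), with medians of 0.40 and 0.32 on the log2 scale beside -0.0213 and -0.0185 over all genes.

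Receptors that share RXR as a partner were lower in TRα1PV where they were called. The list was chosen with earlier results of these data known, so its counts are no test of such receptors as a set. Of 10 tested, 6 fell in M0, 2 in M1 and 3 in M2, and 0 rose in any state. Of all genes, 14.0, 10.2 and 6.96% fell in these states. In M1 the count lay near that share. Nr1h3, the gene of liver X receptor α, fell to 3.94 ± 0.912 CPM in TRα1PV M0, against 9.67 ± 3.05 CPM in WT M0 (-1.29 ± 0.19, adjusted p = 7.10e-06), and in M1 it fell too (-0.68 ± 0.17, adjusted p = 0.00487). Ppard, the gene of a fatty acid receptor, fell by 0.56 ± 0.08 (log2) in M0 and by 0.39 ± 0.08 in M2 (adjusted p = 5.03e-06 and 0.00134). The retinoic acid receptor gene Rara fell by 0.47 ± 0.09 (log2) in M0 and by 0.57 ± 0.09 in M2 (adjusted p = 2.85e-04 and 6.48e-05). Nr4a2 fell in M1 (-0.89 ± 0.17, adjusted p = 3.14e-04), and the vitamin D receptor gene Vdr fell in M2 (-1.05 ± 0.18, adjusted p = 1.16e-04).

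Genes of thyroid hormone transport, conversion and binding were partly silent in these cells. They are listed as hormone supply, whether they add to T3 or remove it. Of the 9 listed, Dio3, Slco1c1 and Crym had 0 reads in all libraries, and Dio1 had 0 to 7 reads per group. Slc7a8, a transporter of amino acids and thyroid hormone, was higher in TRα1PV in M0 (0.22 ± 0.07, adjusted p = 0.022), M1 (0.31 ± 0.07, adjusted p = 0.00263) and M2 (0.30 ± 0.07, adjusted p = 0.0062). Slc7a5 was higher in M0 (0.78 ± 0.20, adjusted p = 0.00522) and M1 (0.62 ± 0.21, adjusted p = 0.0335), and Slc16a10, the transporter MCT10, was lower in M0 (-0.36 ± 0.07, adjusted p = 3.77e-04). Leaving out 1 library could end the M0 call of Slc7a8 (adjusted p up to 0.0669) and the M1 call of Slc7a5 (up to 0.0949). The Slc7a8 call in M0 was also lost without both M0 libraries numbered 2 (adjusted p = 0.056), and the Slc7a5 call in M1 with limma-voom (0.0876) and with no filter on low counts (0.0529). Dio2, the deiodinase that makes T3 from its precursor, had 12.8 ± 10.2 CPM in TRα1PV M0 and 8.12 ± 1.80 CPM in WT M0 (0.68 ± 0.39, adjusted p = 0.198). Its medians went the other way, with 7.40 CPM in TRα1PV M0 and 8.21 CPM in WT M0. The highest TRα1PV M0 library had 30.1 CPM.

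Of 4 tested genes that respond to T3, Klf9 fell in TRα1PV in all states (-3.81 ± 0.15 in M0, -5.19 ± 0.17 in M1 and -2.31 ± 0.12 in M2, adjusted p = 1.09e-17, 1.16e-19 and 2.93e-14), beside the rise of Thra. Hr, the gene of the corepressor hairless, fell in M2 (-2.92 ± 0.27, adjusted p = 3.17e-09). Cpt1a, of fatty acid oxidation, fell in M1 (-0.43 ± 0.07, adjusted p = 8.29e-05) and M2 (-0.31 ± 0.07, adjusted p = 0.00426), and Me1, of malic enzyme, fell in M1 (-0.36 ± 0.12, adjusted p = 0.0322). The Me1 call was lost without any 1 of 4 libraries (adjusted p up to 0.083). Thrsp had at most 2 reads in a group. Near Thra on its chromosome, Med24 fell in M0 (-0.27 ± 0.09, adjusted p = 0.0291). It was at 0.24 ± 0.09 in M1 and -0.17 ± 0.09 in M2 (adjusted p = 0.0617 and 0.216). Its M0 call was lost without any 1 of 6 libraries (adjusted p up to 0.107) and with the compared groups alone (adjusted p = 0.126). It was also lost when adjusted for outside reads (-0.096, adjusted p = 0.427). Msl1, the next neighbour, was at 0.09, 0.13 and 0.02, each ± 0.05 (adjusted p = 0.179, 0.0713 and 0.84). Nr1d2, the neighbour of Thrb, was at 0.26 ± 0.13, -0.20 ± 0.14 and 0.21 ± 0.14 (adjusted p = 0.156, 0.322 and 0.303). Averaged over the 3 states, 2 of the 4 neighbour genes, which include Nr1d1, were called higher and 0 lower. Of all genes, 11.6% were higher and 14.6% lower. How the neighbours relate to the rise of Thra was not tested.

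The genes with the pattern most like that of a receptor gene were taken by Pearson's r of log2 CPM over the 30 libraries, which share group, depth and stimulus. For Thra these were Bmpr1a (0.837), Runx2 (0.833), Tnfsf8 (0.808), Armcx2 (0.789) and Gja1 (0.785). For Thrb, whose pattern is mostly that of M2 against the other states, they were Smap2 (0.989), Hebp2 (0.984), Plekhf1 (0.98), Mgl2 (0.98) and Prps1 (0.98). For Rxra, whose pattern is mostly low M1 values, they were Zfp704 (0.978), Aph1c (0.975), Tns1 (0.974), Susd1 (0.974) and Svil (0.973). The r values for Thra were lower than those for Thrb and Rxra, whose levels differ between states by more.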

How the data were processed

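PolyA-selected RNA of 30 macrophage libraries was measured, 5 for each of 6 groups. The authors deposited unnormalized read counts by gene, 1 file per library, with 55414 genes; 5 further totals, of reads assigned to no gene, stayed out of library sizes and tests, and reads outside genes made up 8.84 to 14.7% of those counted. Per the submitters' processing notes, the build was GRCm39 and the tools included Trimmomatic 0.39, HISAT2 2.2.1, HTSeq 1.99.2, limma, edgeR, Cufflinks, R 4.3.2 and FastQC 0.11.9, with no role given for each. The sources used here name neither the annotation release nor the strand setting. Gene symbols, exon lengths and overlaps came from GENCODE M21 on GRCm38, so no coordinates of counted genes are given.

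Counts were analysed with edgeR 4.0.16 (R 4.3.3). Filtering used filterByExpr (minimum count 10, minimum total 15), which left 15686, and libraries were scaled with TMM factors. A single quasi-likelihood model took all 30 libraries, with 1 mean for each group, leaving 24 residual degrees of freedom, and 10 comparisons were tested two-sided. SE was computed as |log2 fold change|/√F. For groups at 1 to 3 reads a ratio and its exact 95% interval are given. A simulated data set with known changes was used to check the fit.

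The 9 genes and all lists (partner receptors, cofactors, hormone supply, T3-responsive genes, neighbours, cell type markers) were chosen with earlier results of these data known. The text names all 9 genes, up to 3 called members of each list per genotype comparison with the smallest p, all members with reads of the supply, T3-responsive and neighbour lists, and the 5 genes most like Thra, Thrb and Rxra; some items that this rule takes in are not reported here.

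Alternatives were RLE size factors, DESeq2 1.42.0, limma-voom (limma 3.58.1), no filter on low counts, a replicate block, a replicate block within genotype, the share of reads that fell outside genes added as a covariate, the compared groups alone, no M0 library numbered 2, and leaving out each library. The labels give the replicate number under the tag batch. Only the replicate blocks used it as pairing, and the main model did not. Deviations of same-numbered libraries correlated by -0.374 to 0.259 between genotypes and by -0.24 to 0.331 between states. The labels do not say whether a number marks 1 animal or 1 day, so p-values measure the spread between these libraries. Replicates of a group all differed beyond counting noise.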

Additional observations from a re-analysis of the deposited data

Results flagged for a closer look

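Among 52 groups of 5 libraries of the 9 genes, 4 held a library far from the others, where chance gives about 1 in 20. Rxra had 94 CPM in WT M2 replicate 1, against 111 to 116 CPM in the other 4 libraries. Ncor1 had 322 CPM in WT M0 replicate 2, against 224 to 249 CPM, and 226 CPM in WT M2 replicate 4, against 193 to 201 CPM. Med1 had 125 CPM in WT M1 replicate 1, against 147 to 153 CPM. All 4 of these libraries were WT. WT M0 replicate 2 also had the highest mitochondrial share of its group, 4.56%.

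The effect of TRα1PV differed between M1 and M0 for Rxra, by 0.67 on the log2 scale (edgeR adjusted p = 8.29e-05), and for Rxrb, by 0.43 (edgeR adjusted p = 0.0411). Rxra fell with LPS and interferon-γ in both genotypes and by less in TRα1PV. Rxrb fell in WT, and its value in TRα1PV did not pass. With the share of reads that fell outside genes in the edgeR model, the Rxrb value in TRα1PV was -0.531 (adjusted p = 1.88e-05). The difference between M1 and M0 in the genotype effect on Rxrb then did not pass (0.268, adjusted p = 0.0657). That share does not overlap between TRα1PV M0 and TRα1PV M1, so it cannot be told apart from the state there.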

How the results depend on the processing

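Of 916 recomputed fold changes outside the leave-one-out analyses, 843 kept their direction and their side of the threshold, 38 lost a call, 22 gained one and 13 changed sign; of 1390 with a library left out, 1277 kept both, 83 lost a call, 14 gained one and 16 changed sign. The cause of these changes was not tested. Thra in all states, Rxra in M1 and M2 and Ncoa3 in M1 kept their calls between genotypes in every alternative run.

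The number of the 9 genes called for the genotype effect in M1 minus that in M0 was 1 with no filter (3274 of all genes called), with adjustment for the share of reads that fell outside genes (the covariate, 3987) and with the compared groups alone (3196), against 2 (4175), and 1 to 3 with a library left out. Without both M0 libraries numbered 2, 5 were called between genotypes in M0 and 1 for the effect in M2 minus that in M0 (Rxra, 0.398, adjusted p = 0.0183); all-gene calls were 6407 in M0, against 4072, and 489 for M2 minus M0, against 339. With a library left out, the counts were 2 to 5 in M0, 2 to 4 in M2 and 0 to 1 for the effect in M2 minus that in M0; the highest of each went with 6143, 2709 and 511 of all genes called, against 4072, 2055 and 339.

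Most sign changes were of values near 0, except that of Rxrb in M0 (-0.19). Ncor1 in M0 was 0.003 with limma-voom, 0.002 with no filter, 0.002 with the compared groups alone and 0.118 without both M0 libraries numbered 2, and in M1 it was -0.002 with no filter. With the covariate, Ncor1 was -0.029 in M1, -0.043 in M2 and -0.062 over the states, Rxrb 0.045 in M0 and 0.082 over the states, and Rxra -0.056 for M2 against M0 in TRα1PV. Without both M0 libraries numbered 2, Rxra in M0 was -0.033 and the Rxrb effect in M2 minus that in M0 was 0.115. With 1 library left out, ranges that crossed 0 were -0.053 to 0.089 (Ncor1 in M0), -0.012 to 0.044 (Ncor1 in M1), -0.004 to 0.043 (Ncor1 over the states), -0.061 to 0.008 (Med1 in M1), -0.12 to 0.069 (Thrb in M2), -0.068 to 0.134 (Thra, M1 against M0 in WT) and -0.112 to 0.048 (the Rxrb effect in M2 minus that in M0).

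The replicate block changed no call of the 9 genes other than those of Thra, Ncoa1 and Med1 given with their block values above. Depth limited Thrb alone, with 1 and 2 reads in the M1 groups.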
